A study of Mus musculus with 15 samples.

Results

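The genes described here are 10 transcription factor genes that are known for guiding CD8 T cells between effector and memory fates: Tcf7, Lef1, Eomes, Tbx21, Prdm1, Id2, Id3, Bach2, Foxo1 and Zeb2. They were listed by name for their known roles, with earlier results of these data known, and are 10 of the 27019 gene rows of the deposited table of raw counts. The sequencing lanes of a library were summed, and all 10 genes passed the filter on low counts that left 16057 genes to be tested.

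As background, a naive CD8 T cell that meets its antigen divides and forms short-lived effector cells, which kill, and a smaller pool of memory cells, which persist. TCF1 (the product of Tcf7), LEF1, FOXO1, BACH2 and ID3 are known for keeping cells in the naive, memory or stem-like state, whereas T-bet (Tbx21), BLIMP1 (Prdm1), ID2 and ZEB2 are known for driving effector differentiation. EOMES, the T-box relative of T-bet, is known for effector functions in killing and also for the maintenance of memory cells.

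The data were poly(A) RNA counts of CD8+ T cells from the spleens of OT-I mice on the C57BL/6 background aged 8 to 10 weeks. All cells, in every group, carried the OT-I T cell receptor transgene, which recognises the ovalbumin peptide OVA257-264. The Susd2-/- day 3 group and the WT day 3 group came from splenocytes stimulated with that peptide for 3 days, and the Susd2-/- day 0 group and the WT day 0 group were left untreated. No group was kept for 3 days without the peptide. The effects of the peptide, of the 3 days and of a changed mix of cells therefore cannot be told apart between the days. The cells were isolated with a magnetic enrichment kit, which can leave RNA of other spleen cells. Each group had 2 libraries. Whether a library stands for a mouse of its own is not stated in the labels, and the p-values therefore cover only the spread between libraries, which may be technical. The labels give neither the construction of the Susd2 allele nor the sex of the mice nor whether Susd2-/- and WT mice were littermates.

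The 8 libraries held 26829807 to 53846911 counts. Susd2 itself lay in Susd2-/- cells at 5.73% of its WT level at day 3 and at 2.43% of its WT level at day 0. It passed the test at day 0 but not at day 3 (adjusted p = 0.112), where WT cells had only 16 and 10 counts. The 11 markers of CD8 T cells, Cd8a and Cd3e among them, were present in every library. Of 13 macrophage and monocyte markers 7 were at 0 in both Susd2-/- libraries at day 3, and Adgre1, Vcam1, C1qa, C1qc and Spic were at 0 in all 4 libraries of that day. At day 0 macrophage and monocyte markers summed to 163 and 152 CPM in the Susd2-/- libraries and to 72.5 and 72.6 CPM in the WT libraries, and 8 of 13 were called higher in Susd2-/- cells. Of all genes tested 11.5% were called higher in that comparison. CPM is the share of a library's counts that a gene takes, after TMM scaling between libraries. In bulk RNA, fewer cells of a type and less RNA per cell cannot be told apart.

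Promoter sequences are shown for 3 genes because the T-box relatives Eomes and Tbx21 moved in opposite directions between the days, and Prdm1 rose together with Tbx21. Each is the 250 bases before the most upstream start of the gene in RefSeq (GRCm38.p6), 5′ to 3′ on the strand of the gene, and none of the 3 windows overlaps an exon of the GENCODE vM21 annotation. The Prdm1 start lies inside the longer gene model of that annotation. Capitals mark every match, on either strand, to CANNTG (the E-box core bound by E proteins, whose partners ID2 and ID3 are), GTAAACA (FOXO), AGGTGTGA (T-box), CTTTGAT (TCF and LEF), CTTTGAA (a TCF and LEF variant), TGANTCA (AP-1-like, with any middle base), TATAAA (the TATA box), CCAAT (the CCAAT box) or GGGCGG (the GC box).
Eomes, chr9:118477939-118478188, + strand: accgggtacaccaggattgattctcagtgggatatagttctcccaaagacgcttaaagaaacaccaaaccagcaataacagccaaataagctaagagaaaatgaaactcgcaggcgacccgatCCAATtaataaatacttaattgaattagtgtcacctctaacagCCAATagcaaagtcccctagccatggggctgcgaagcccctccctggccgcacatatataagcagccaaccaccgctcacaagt
Tbx21, chr11:97115332-97115581, - strand: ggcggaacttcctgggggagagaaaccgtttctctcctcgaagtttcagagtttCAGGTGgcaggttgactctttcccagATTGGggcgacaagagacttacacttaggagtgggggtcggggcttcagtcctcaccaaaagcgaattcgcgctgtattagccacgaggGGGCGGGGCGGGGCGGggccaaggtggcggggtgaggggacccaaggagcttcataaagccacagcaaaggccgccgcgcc
Prdm1, chr10:44458749-44458998, - strand: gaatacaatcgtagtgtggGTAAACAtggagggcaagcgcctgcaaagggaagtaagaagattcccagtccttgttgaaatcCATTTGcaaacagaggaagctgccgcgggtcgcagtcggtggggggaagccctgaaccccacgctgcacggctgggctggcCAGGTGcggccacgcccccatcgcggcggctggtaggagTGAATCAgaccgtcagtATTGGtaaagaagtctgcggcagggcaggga

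The Eomes window held 2 CCAAT matches and no other motif of the set, and 46.4% of its bases were G or C. The Tbx21 window was richer in G and C at 60.8% and held 1 E-box core, 1 CCAAT match and 3 GGGCGG matches, which overlap each other. The Prdm1 window, at 59.2% G and C, held 2 E-box cores, 1 FOXO match, 1 AP-1-like match and 1 CCAAT match. The AP-1-like match, TGAATCA, lacks the middle C or G of the AP-1 consensus. Among windows of the same length, 1 for each of 27025 genes, 66.1% held an E-box core, 34.5% CCAAT, 33.0% GGGCGG, 6.85% the AP-1-like letters TGANTCA and 3.06% the FOXO letters. The T-box letters AGGTGTGA were in 1.14% of windows, CTTTGAT in 3.26%, CTTTGAA in 4.63% and TATAAA in 13.0%. A match describes the letters of the window and is not a binding site.

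Per kilobase of annotated exon, which allows levels to be compared between genes, Tbx21 and Tcf7 were the highest of the 10 at day 3 and Tcf7 alone was far above the others at day 0. At day 3 Tbx21 averaged 46.0 CPM per kb in Susd2-/- cells and 45.3 CPM per kb in WT cells, and Tcf7 averaged 35.5 CPM per kb in Susd2-/- cells and 45.1 CPM per kb in WT cells. At day 0 Tcf7 averaged 466 CPM per kb in Susd2-/- cells and 421 CPM per kb in WT cells, and the gene next in level, Id2, averaged 32.8 CPM per kb in Susd2-/- cells and 28.5 CPM per kb in WT cells. Zeb2 was the lowest of the 10 at day 3, at 0.457 CPM per kb in Susd2-/- cells and 0.497 CPM per kb in WT cells. At day 0 Zeb2 and Prdm1 were the lowest pair, with Prdm1 at 0.568 CPM per kb in Susd2-/- cells and 0.439 CPM per kb in WT cells. The length used is that of all annotated exons joined, so genes with many isoforms are understated.

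**Figure D1:**
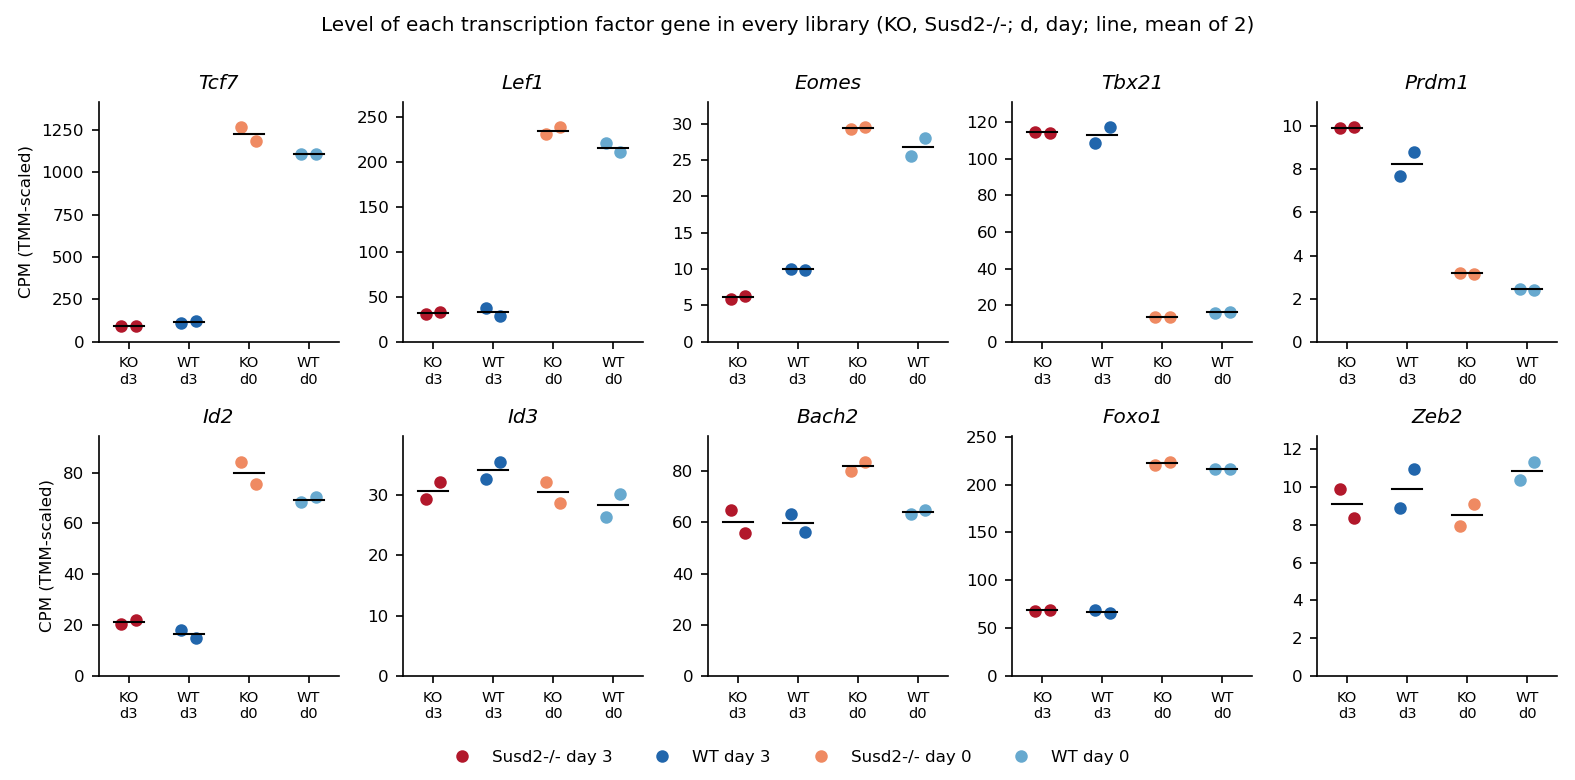
TMM-scaled CPM (linear axes from 0, each with its own scale) of the 10 genes in each of the 8 libraries, with Susd2-/- left of WT, day 3 left of day 0, points for libraries and lines for means of 2. Tcf7, Lef1, Eomes, Id2 and Foxo1 are lower at day 3, Tbx21 and Prdm1 are higher, and Eomes at day 3 is 5.93 and 6.36 CPM in Susd2-/- libraries against 10.0 and 9.91 CPM in WT libraries.

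The comparison of days asked how the genes changed over 3 days with the peptide, and 8 of the 10 genes were called in each genotype. Tcf7, Lef1, Eomes, Id2 and Foxo1 fell and Tbx21 and Prdm1 rose in both. In Susd2-/- cells 2 rose and 6 fell at day 3 relative to day 0, and in WT cells 3 rose and 5 fell (edgeR's quasi-likelihood test with Benjamini-Hochberg adjustment over all genes, adjusted p below 0.05). This share is near that of all genes tested. In Susd2-/- cells 76.4% of all tested genes were called, 36.7% higher and 39.7% lower, and in WT cells 75.2% were called, 36.2% higher and 39% lower. The median log2 fold change of the 10 genes was -1.07 in Susd2-/- cells and -0.78 in WT cells, against -0.12 and -0.14 over all genes tested.

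Tcf7, on chromosome 11 (52252371 to 52283014, minus strand), fell more than any other gene of the list. Its level was 94.1 and 92.4 CPM in Susd2-/- libraries at day 3, against 1264 and 1181 CPM in Susd2-/- libraries at day 0. It was 111 and 125 CPM in WT libraries at day 3, against 1104 and 1106 CPM in WT libraries at day 0. The days did not overlap in either genotype, and the log2 fold change was -3.71 (SE 0.072, adjusted p = 9.73e-19) in Susd2-/- cells and -3.22 (SE 0.071, adjusted p = 4.10e-18) in WT cells. Lef1, the HMG-box relative of Tcf7 on chromosome 3 (131110471 to 131224356, plus strand), followed it, with 31.3 and 33.7 CPM in Susd2-/- libraries at day 3 against 231 and 239 CPM in Susd2-/- libraries at day 0. In WT libraries Lef1 had 37.1 and 28.5 CPM at day 3 against 221 and 211 CPM at day 0. Its log2 fold change was -2.85 (SE 0.097) in Susd2-/- cells and -2.72 (SE 0.098) in WT cells, and the 4 groups fell into the order day 0 above day 3, with the 2 genotypes overlapping at day 3.

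Foxo1, on chromosome 3 (52268336 to 52353221, plus strand), encodes a forkhead factor that is known for being kept out of the nucleus by signals through AKT. It had 68.3 and 68.9 CPM in Susd2-/- libraries at day 3 against 221 and 224 CPM in Susd2-/- libraries at day 0, and 68.4 and 65.7 CPM in WT libraries at day 3 against 216 and 216 CPM in WT libraries at day 0. The fall was of like size in both genotypes, with log2 fold changes of -1.70 (SE 0.063) in Susd2-/- cells and -1.69 (SE 0.063) in WT cells, and the difference between them was -0.01 (SE 0.087, adjusted p = 0.978).

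Bach2, on chromosome 4 (32238804 to 32586108, plus strand), encodes a repressor that is known for restraining effector genes in T cells. It fell in Susd2-/- cells to 64.9 and 55.7 CPM at day 3 against 80.3 and 83.8 CPM at day 0 (log2 fold change -0.45, SE 0.083, adjusted p = 7.49e-05). In WT cells Bach2 had 63.2 and 56.4 CPM at day 3 against 63.3 and 64.8 CPM at day 0, a log2 fold change of -0.10 (SE 0.084) that was not called (adjusted p = 0.292). The difference between the genotypes in this change, -0.35 (SE 0.118), did not pass the threshold (adjusted p = 0.0562). Scaling decides part of it: with total counts or upper-quartile scaling, which shift the median log2 fold change of all genes between the days to between -0.31 and -0.33, Bach2 was called lower in WT cells too, at -0.28 and -0.29.

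Id3, on chromosome 4 (136143497 to 136145755, plus strand), encodes an inhibitor of E proteins that is known as a mark of memory precursor cells. In Susd2-/- libraries it had 29.4 and 32.1 CPM at day 3 and 32.2 and 28.7 CPM at day 0, and these libraries overlapped (log2 fold change 0.01, SE 0.105, adjusted p = 0.901). In WT libraries Id3 had 32.7 and 35.6 CPM at day 3 against 26.4 and 30.1 CPM at day 0, a small rise (log2 fold change 0.27, SE 0.106, adjusted p = 0.0273). That rise was no longer called with total counts (0.09) or upper-quartile scaling (0.08), with lane 1 alone (0.14), with the 2 day 0 libraries of each genotype counted as 1 (0.25) or without WT day 0 library 3 (0.18).

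Eomes, on chromosome 9 (118478212 to 118486132, plus strand), fell in both genotypes. It had 5.93 and 6.36 CPM in Susd2-/- libraries at day 3 against 29.3 and 29.5 CPM in Susd2-/- libraries at day 0, and 10.0 and 9.91 CPM in WT libraries at day 3 against 25.5 and 28.0 CPM in WT libraries at day 0. The log2 fold change was -2.25 (SE 0.127, adjusted p = 4.19e-12) in Susd2-/- cells and -1.42 (SE 0.123, adjusted p = 3.36e-09) in WT cells. Tbx21, whose promoter is printed above beside that of Eomes, lies on chromosome 11 (97098071 to 97115331, minus strand) and moved the other way. It had 115 and 114 CPM in Susd2-/- libraries at day 3 against 13.7 and 13.7 CPM in Susd2-/- libraries at day 0, and 108 and 117 CPM in WT libraries at day 3 against 15.7 and 16.5 CPM in WT libraries at day 0. This was a rise of 8.35-fold in Susd2-/- cells (log2 fold change 3.06, SE 0.081) and of 7.02-fold in WT cells (2.81, SE 0.080), with no overlap between the days.

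NK cells are known to express both T-box genes. The 10 markers of NK and innate lymphoid cells summed to 16.8 and 19.0 CPM in Susd2-/- libraries and 16.5 and 15.2 CPM in WT libraries at day 3, and to 63.2 and 65.7 CPM in Susd2-/- libraries and 72.7 and 71.5 CPM in WT libraries at day 0. Gata3, which T cells also express, made up 13.8 and 14.6 CPM of the sum in Susd2-/- libraries and 12.2 and 11.7 CPM in WT libraries at day 3, and 34.5 and 31.7 CPM in Susd2-/- libraries and 27.1 and 29.3 CPM in WT libraries at day 0. Of the 10 markers 9 fell with the day in each genotype, where 39.7% (Susd2-/-) and 39% (WT) of all genes tested fell. Klra8 was at 0 in all 4 libraries of day 3. The part of NK and innate lymphoid cells in the fall of Eomes was not tested.

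Prdm1, on chromosome 10 (44437177 to 44528501, minus strand), encodes the repressor BLIMP1 and rose. It had 9.90 and 9.95 CPM in Susd2-/- libraries at day 3 against 3.20 and 3.14 CPM in Susd2-/- libraries at day 0, and 7.69 and 8.81 CPM in WT libraries at day 3 against 2.47 and 2.43 CPM in WT libraries at day 0. The log2 fold change was 1.65 (SE 0.195) in Susd2-/- cells and 1.75 (SE 0.203) in WT cells. Its counts were the lowest of the list, 71 to 101 in the libraries of day 0, and its spread between libraries in the fit was the widest, at a biological coefficient of variation of 11.0% against 5.02% for Foxo1.

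Id2, on chromosome 12 (25093799 to 25097140, minus strand), encodes the E protein inhibitor known from effector cells, and it fell at day 3. It had 20.4 and 22.2 CPM in Susd2-/- libraries at day 3 against 84.4 and 75.6 CPM in Susd2-/- libraries at day 0, and 18.2 and 14.9 CPM in WT libraries at day 3 against 68.5 and 70.3 CPM in WT libraries at day 0. The log2 fold change was -1.91 (SE 0.097) in Susd2-/- cells and -2.07 (SE 0.101) in WT cells. Macrophages and innate lymphoid cells also express Id2, and 13 of 13 macrophage and monocyte markers fell in Susd2-/- cells and 12 of 13 in WT cells between the days, to sums of 10.1 and 6.74 CPM in Susd2-/- libraries and 9.01 and 10.9 CPM in WT libraries at day 3. Of all genes tested 39.7% fell in Susd2-/- cells and 39% in WT cells. The part of macrophages and innate lymphoid cells in the fall of Id2 was not tested.

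Zeb2, on chromosome 2 (44983632 to 45117395, minus strand), encodes a zinc finger repressor that is known for driving effector differentiation. Zeb2 was not called in either genotype. It had 9.90 and 8.33 CPM in Susd2-/- libraries at day 3 and 7.94 and 9.09 CPM in Susd2-/- libraries at day 0, and 8.88 and 10.9 CPM in WT libraries at day 3 and 10.4 and 11.3 CPM in WT libraries at day 0. The days overlapped in both genotypes, and the log2 fold change was 0.09 (SE 0.171) in Susd2-/- cells and -0.13 (SE 0.170) in WT cells.

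**Figure D2:**
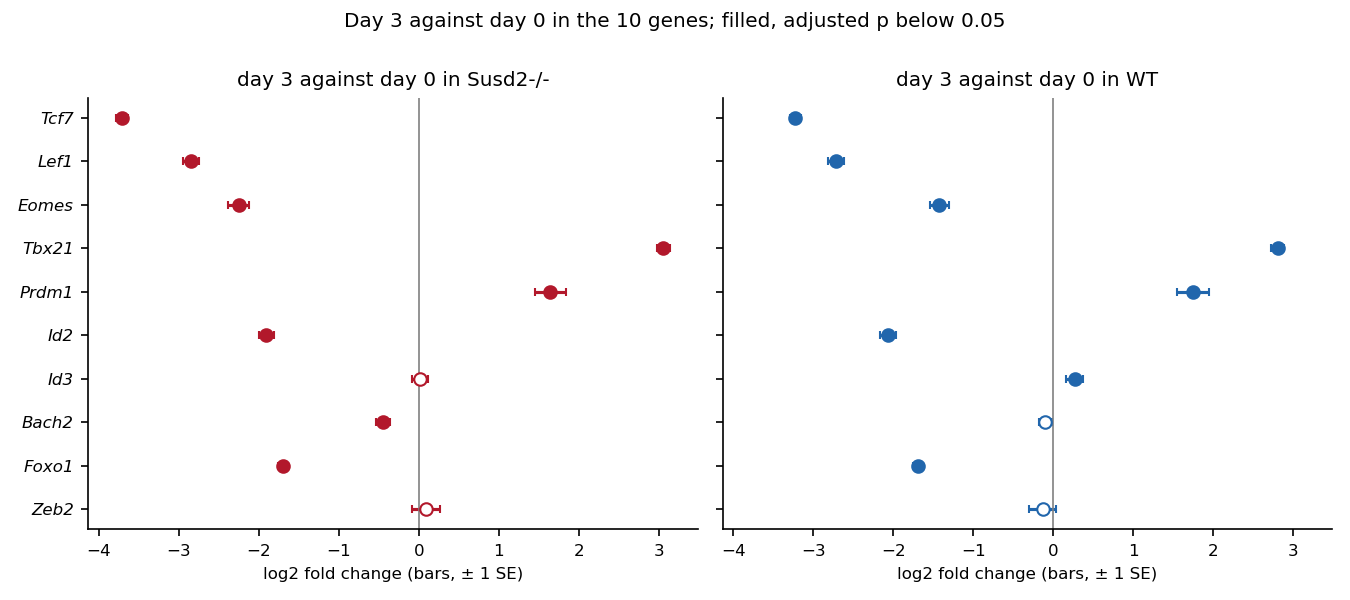
Log2 fold change of day 3 against day 0 for the 10 genes in Susd2-/- cells and in WT cells, with bars of 1 SE from the joint fit of 8 libraries and filled points for an adjusted p below 0.05. Tcf7 lies farthest to the left, at -3.71 in Susd2-/- cells and -3.22 in WT cells, and Tbx21 farthest to the right, at 3.06 and 2.81.

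The first genotype comparison asked how the genes differed between Susd2-/- and WT cells after 3 days with the peptide. Tcf7 and Eomes were lower in Susd2-/- cells and no gene of the list was higher, so that 2 of 10 were called by edgeR's quasi-likelihood test. Of all genes tested 0.137% were called, 0.0498% higher and 0.0872% lower. DESeq2 called the same number, 2, and limma voom called 1.

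Eomes, with the per-library levels given above, did not overlap between the genotypes at day 3 and was 0.618 of its WT level in Susd2-/- cells (log2 fold change -0.69, SE 0.131, adjusted p = 0.0395). It rested on 176 and 323 raw counts in Susd2-/- libraries, against 311 and 280 raw counts in WT libraries. Tcf7 did not overlap either and was 0.788 of its WT level (log2 fold change -0.34, SE 0.067, adjusted p = 0.0490). Both p-values lie close to the threshold. The direction was the same under all 18 alternatives, but the Eomes call was lost under 11 of them (adjusted p 0.0817 to 0.492) and the Tcf7 call under 10 (adjusted p 0.0768 to 0.568). Over all 18 the adjusted p ran from 0.00628 to 0.492 for Eomes and from 0.000849 to 0.568 for Tcf7.

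Leaving out a library was among the alternatives that ended these calls. Without Susd2-/- day 3 library 2 the log2 fold change was -0.75 for Eomes and -0.33 for Tcf7, without WT day 3 library 2 it was -0.71 for Eomes and -0.26 for Tcf7, and neither gene was called in either case. Without any of the 4 libraries of day 0, which do not enter the difference but share the estimate of spread, neither gene was called, at values of -0.70 for Eomes and between -0.35 and -0.34 for Tcf7. Both genes remained called without Susd2-/- day 3 library 1, at -0.65 for Eomes and -0.36 for Tcf7, and without WT day 3 library 1, at -0.68 and -0.43. With library number as a replicate block the adjusted p was 0.0817 for Eomes and 0.0768 for Tcf7. With the compared groups alone it was 0.334 for Eomes and 0.188 for Tcf7 by the same edgeR test. With lane 1 alone, so that all libraries had the same lane, neither gene was called by that test. The log2 fold change was then -0.44 for Eomes (adjusted p = 0.492) and -0.28 for Tcf7 (adjusted p = 0.212). The other alternatives gave Eomes values between -0.75 and -0.64. As a measure of spread, the chi-square of counts per degree of freedom between the libraries of a group was 16.0 (Susd2-/-) and 12.5 (WT) at day 3. At day 0 it was 6.30 (Susd2-/-) and 3.37 (WT), and between lanes of the same library it was 3.01 to 3.17.

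**Figure D3:**
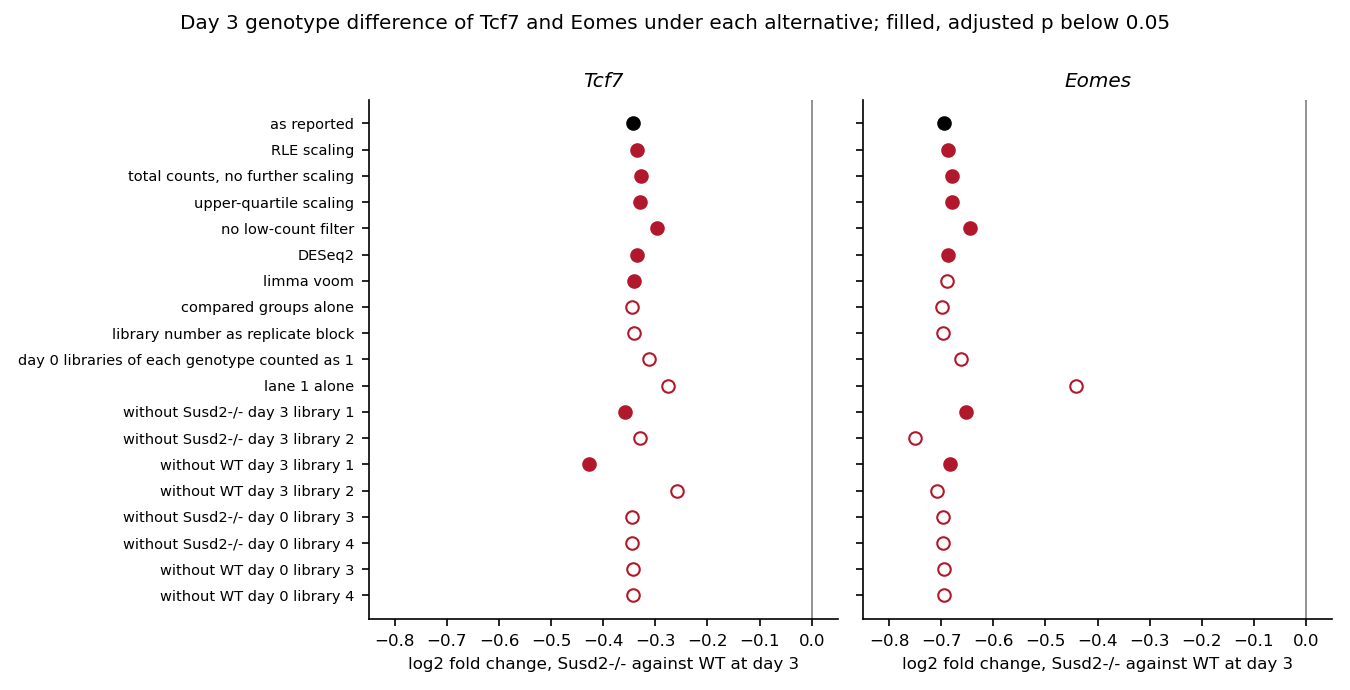
Log2 fold change of Tcf7 and of Eomes in Susd2-/- cells against WT cells at day 3, as reported (black) and under each of 18 alternatives (red), filled where the adjusted p was below 0.05 and open where not. All points lie below 0, between -0.43 and -0.26 for Tcf7 and between -0.75 and -0.44 for Eomes. The -0.44 for Eomes is that with lane 1 alone, and the other Eomes points lie at -0.64 or below.

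The other 8 genes did not pass the test at day 3. Id2 came closest, with 20.4 and 22.2 CPM in Susd2-/- libraries against 18.2 and 14.9 CPM in WT libraries (log2 fold change 0.37, SE 0.103, adjusted p = 0.256). Its groups did not overlap, and it was called when no filter on low counts was used (adjusted p = 0.0313) and without WT day 3 library 1 (adjusted p = 0.0249), within a range of 0.0249 to 0.796 over the 18 alternatives. Id3 differed by -0.15 (SE 0.105) and Prdm1 by 0.27 (SE 0.181) on the log2 scale, again with groups that did not overlap. Over all genes tested the groups did not overlap for 33.7% at day 3, and among the 10 they did not for 5.

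Tbx21 (0.02, SE 0.070), Foxo1 (0.03, SE 0.063), Bach2 (0.01, SE 0.083), Lef1 (-0.01, SE 0.098) and Zeb2 (-0.13, SE 0.170) overlapped between the genotypes at day 3. The HMG-box pair and the T-box pair therefore each had 1 gene that was called and 1 that overlapped, but the difference between the members of a pair was not tested. Among markers of other cells 0 of 62 were called at day 3 by edgeR, DESeq2 or limma voom, with 8 at an unadjusted p below 0.05, where the share over all genes tested was 7.89%. The 11 CD8 T cell markers summed to 4612 and 4604 CPM in Susd2-/- libraries against 4825 and 4879 CPM in WT libraries at day 3. None of the 11 was called at day 3 by any of the 3 tools and 3 had an unadjusted p below 0.05.

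The second genotype comparison asked the same of untreated cells. Bach2 was higher in Susd2-/- cells and no gene of the list was lower, so that 1 of 10 was called, whereas 23.6% of all genes tested were, 11.5% higher and 12.1% lower. The median log2 fold change was 0.13 for the list and 0.01 over all genes. The libraries of the genotypes did not overlap for 9 of the 10 genes, Id3 being the exception, and 4 had an unadjusted p below 0.05. Over all genes tested the libraries did not overlap for 65% and 34.5% had an unadjusted p below 0.05, and the 4 of 10 lie near that share. At day 0 the 11 CD8 T cell markers summed to 6742 and 6336 CPM in Susd2-/- libraries against 7335 and 7274 CPM in WT libraries, with 5 of 11 called lower and 0 higher. Their part in the genotype differences of day 0, those of the gene lists included, was not tested.

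Bach2 had 80.3 and 83.8 CPM in Susd2-/- libraries against 63.3 and 64.8 CPM in WT libraries at day 0, which is 1.28-fold higher (log2 fold change 0.36, SE 0.083, adjusted p = 0.00392). The call held under 15 of 18 alternatives and was lost when the 2 day 0 libraries of a genotype were counted as 1, without Susd2-/- day 0 library 4 (0.32) and without WT day 0 library 3 (0.34), with adjusted p over all alternatives from 1.73e-05 to 0.199. B cells also express Bach2. The 10 B cell markers summed to 669 and 605 CPM in Susd2-/- libraries against 530 and 540 CPM in WT libraries at day 0, most of it Ighm, and 2 of 10 were called higher. Of all genes tested 11.5% were called higher at day 0. The part of B cells in the difference of Bach2 was not tested.

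Tbx21 was the nearest to the threshold on the lower side at day 0, with 13.7 and 13.7 CPM in Susd2-/- libraries against 15.7 and 16.5 CPM in WT libraries (log2 fold change -0.23, SE 0.086, adjusted p = 0.0639). Tcf7 stood at 1264 and 1181 CPM in Susd2-/- libraries against 1104 and 1106 CPM in WT libraries (0.15, SE 0.064, adjusted p = 0.112) and was called under 6 of 18 alternatives. Id2 had 84.4 and 75.6 CPM in Susd2-/- libraries against 68.5 and 70.3 CPM in WT libraries (0.21, SE 0.092, adjusted p = 0.119). None of these 3 genes was called, although their groups did not overlap.

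Zeb2 (-0.35, SE 0.171), Prdm1 (0.37, SE 0.215), Eomes (0.14, SE 0.116), Lef1 (0.12, SE 0.089), Id3 (0.11, SE 0.106) and Foxo1 (0.04, SE 0.060) had adjusted p-values from 0.155 to 0.675 at day 0. Macrophages are known to express Zeb2, and Zeb2 was at 7.94 and 9.09 CPM in Susd2-/- libraries against 10.4 and 11.3 CPM in WT libraries. The summed macrophage markers of day 0 are given above, and their part in the level of Zeb2 was not tested.

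**Figure D4:**
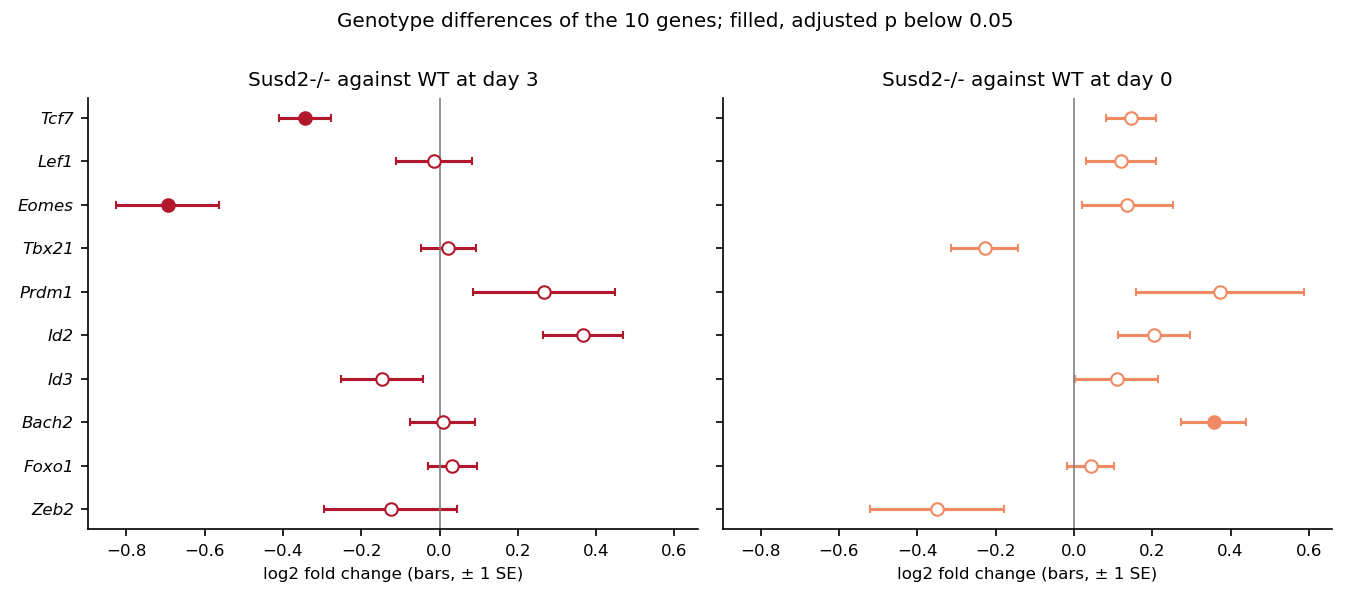
Log2 fold change of Susd2-/- against WT for the 10 genes at day 3 and at day 0, with bars of 1 SE from the joint fit of 8 libraries. Filled points passed an adjusted p of 0.05: Tcf7 (-0.34) and Eomes (-0.69) at day 3, and Bach2 (0.36) at day 0.

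A test of the difference between both genotype effects, the interaction of genotype and day, called Tcf7 and Eomes. Of all genes tested 13.5% were called, 6.6% higher and 6.88% lower, and this test uses the same libraries as the comparisons above. Tcf7 was lower in Susd2-/- cells at day 3 and not called at day 0, where its log2 difference was positive, and the interaction was -0.49 (SE 0.092, adjusted p = 0.00168). The same held for Eomes, with an interaction of -0.83 (SE 0.175, adjusted p = 0.00378). Put in levels, Eomes stood at 6.14 ± 0.307 CPM in Susd2-/- cells and 9.98 ± 0.0957 CPM in WT cells at day 3, and at 29.4 ± 0.139 CPM in Susd2-/- cells and 26.8 ± 1.73 CPM in WT cells at day 0 (SD, n = 2 each). The interaction was lost for Tcf7 under 1 of 17 alternatives and for Eomes under 2 of 17. Both genes lost it with the day 0 libraries of each genotype counted as 1, and Eomes also with lane 1 alone. Bach2 (-0.35) and Tbx21 (0.25, SE 0.111, adjusted p = 0.155) were not called, and Bach2 was called under 6 of 17 alternatives.

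Ratios of counts within a library do not depend on scaling between libraries and set members of opposite known roles side by side. The ratio of Tcf7 to Tbx21 counts was 0.821 and 0.808 in Susd2-/- libraries and 1.03 and 1.07 in WT libraries at day 3, and 92.5 and 85.9 in Susd2-/- libraries and 70.5 and 67.1 in WT libraries at day 0. The Susd2-/- libraries were thus below the WT libraries at day 3 and above them at day 0. The ratio of Tcf7 to Prdm1 counts did not turn in this way, at 9.50 and 9.29 in Susd2-/- libraries and 14.5 and 14.2 in WT libraries at day 3, and at 395 and 375 in Susd2-/- libraries and 447 and 456 in WT libraries at day 0. In it the Susd2-/- libraries were lower at both days. The ratio of Eomes to Tbx21 counts lay lower in Susd2-/- libraries at day 3 and higher at day 0, at 0.0517 and 0.0557 in Susd2-/- libraries and 0.0927 and 0.0846 in WT libraries at day 3, and at 2.14 and 2.15 in Susd2-/- libraries and 1.63 and 1.70 in WT libraries at day 0. These ratios were described and not tested.

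The ratio of Id3 to Id2 counts was 1.44 and 1.45 in Susd2-/- libraries and 1.79 and 2.39 in WT libraries at day 3, and 0.382 and 0.380 in Susd2-/- libraries and 0.386 and 0.429 in WT libraries at day 0. The order of the inhibitors by counts therefore turned with the day in both genotypes. The ratio of Bach2 to Prdm1 counts was 6.55 and 5.60 in Susd2-/- libraries and 8.23 and 6.40 in WT libraries at day 3, and 25.1 and 26.7 in Susd2-/- libraries and 25.6 and 26.7 in WT libraries at day 0, with overlap between the genotypes at both days.

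**Figure D5:**
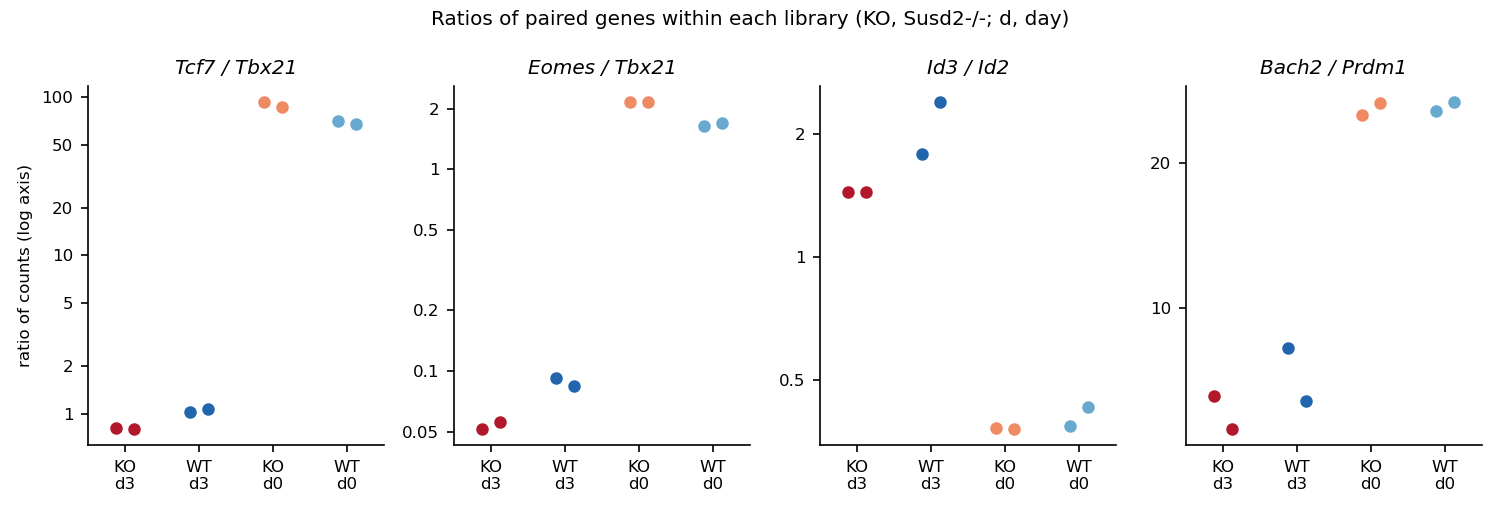
Ratio of counts of 4 gene pairs within each of the 8 libraries on log axes, with Susd2-/- left of WT and day 3 left of day 0. The Tcf7 to Tbx21 ratio lies between 0.808 and 1.07 at day 3 and between 67.1 and 92.5 at day 0, and the Id3 to Id2 ratio lies above 1 at day 3 and below 0.43 at day 0.

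Other genes of the same network were described from lists drawn up by known roles. Over all these lists 0 of 117 tested genes were called between the genotypes at day 3 by edgeR, with 23 at an unadjusted p below 0.05, 3 called by DESeq2 and 0 by limma voom. Over all genes tested 7.89% had an unadjusted p below 0.05 at day 3. The smallest p was that of Bcl9l, a coactivator of beta-catenin with TCF factors, which had 17.8 and 14.7 CPM in Susd2-/- libraries against 20.4 and 21.7 CPM in WT libraries (log2 fold change -0.39, SE 0.086, adjusted p = 0.103). Mxd4, a repressor partner of MAX, followed with 1.41 and 1.95 CPM in Susd2-/- libraries against 2.55 and 3.43 CPM in WT libraries (-0.77, SE 0.179, adjusted p = 0.131). Myb went the other way, with 25.7 and 24.1 CPM in Susd2-/- libraries against 18.7 and 19.9 CPM in WT libraries (0.37, SE 0.098, adjusted p = 0.226). Prf1, the gene of perforin, had 195 and 245 CPM in Susd2-/- libraries against 270 and 329 CPM in WT libraries at day 3 (-0.44, SE 0.115, adjusted p = 0.326). Tle1, a corepressor of TCF factors, differed by -0.56 (SE 0.170, adjusted p = 0.329).

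At day 0 the lists held many calls, as did the table as a whole, where 11.5% of all genes tested were higher and 12.1% lower. The counts of list genes called at day 0, here and in the following paragraphs, are to be read beside these shares. Of 42 other transcription factors of CD8 differentiation 14 were higher and 2 lower in Susd2-/- cells, with a median log2 fold change of 0.18. Irf4, a factor induced by T cell receptor signals, had 39.3 and 34.1 CPM in Susd2-/- libraries against 13.6 and 12.5 CPM in WT libraries (log2 fold change 1.49, SE 0.082), and Nfil3 had 17.0 and 14.5 CPM against 5.37 and 5.94 CPM in WT libraries (1.48, SE 0.138). Myb, a factor of stem-like CD8 T cells, had 58.0 and 56.7 CPM in Susd2-/- libraries against 26.4 and 24.6 CPM in WT libraries (1.17, SE 0.095). Klf2, which keeps naive T cells circulating, had 1132 and 1002 CPM in Susd2-/- libraries against 654 and 661 CPM in WT libraries (0.70, SE 0.072). Macrophages and B cells also express some of these genes, and their part was not tested.

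The Id and E protein list had 2 of 4 tested genes higher at day 0. Id1, another inhibitor, had 1.42 and 1.20 CPM in Susd2-/- libraries against 0.125 and 0.273 CPM in WT libraries, and the E protein gene Tcf4 had 9.78 and 9.16 CPM in Susd2-/- libraries against 5.69 and 6.49 CPM in WT libraries (log2 fold change 0.64, SE 0.183). The E protein genes of T cells, Tcf3 and Tcf12, were not called at either day, with log2 fold changes at day 3 of -0.22 (SE 0.085) and 0.05 (SE 0.068). Among 20 tested cofactors of TCF1 and LEF1 and Wnt feedback genes 2 were higher (Gsk3b at 0.34 and Tle4 at 0.33) and 2 lower (Ctnnb1, which encodes beta-catenin, at -0.26 and Hdac1 at -0.20) at day 0.

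Genes favoured by TCF1, FOXO1, ID3 or BACH2 in memory and stem-like cells split at day 0, with 7 of 22 higher and 6 lower in Susd2-/- cells. Cd28 had 162 and 165 CPM in Susd2-/- libraries against 78.4 and 82.1 CPM in WT libraries (log2 fold change 1.03, SE 0.068), and Ccr7, the homing receptor of lymph nodes, had 702 and 684 CPM against 471 and 468 CPM in WT libraries (0.56, SE 0.072). Igfbp4 went the other way, with 129 and 120 CPM in Susd2-/- libraries against 209 and 202 CPM in WT libraries (-0.72, SE 0.080). Between the days 18 of the 22 fell in each genotype, where 39.7% of all genes tested fell in Susd2-/- cells and 39% in WT cells.

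Genes favoured by T-bet, EOMES, ID2, BLIMP1 or ZEB2 in effector cells were lower more often than higher at day 0, 9 and 2 of 23, with a median log2 fold change of -0.25. Ccl5 had 84.1 and 76.2 CPM in Susd2-/- libraries against 146 and 135 CPM in WT libraries (-0.81, SE 0.085), Gzma had 35.0 and 32.4 CPM against 60.5 and 63.5 CPM in WT libraries (-0.88, SE 0.129), and Gzmb had 15.3 and 13.3 CPM against 24.8 and 26.0 CPM in WT libraries (-0.83, SE 0.096). Il2rb, the receptor chain shared by IL-2 and IL-15, was higher, at 359 and 365 CPM in Susd2-/- libraries against 240 and 243 CPM in WT libraries (0.58, SE 0.058). NK cells share Ccl5, Gzma and Gzmb, and their summed markers at day 0, given above, were lower in the Susd2-/- libraries. Their part was not tested.

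A list of relatives from the T-box, HMG, BLIMP, BACH, FOXO and ZEB families, which leaves out the ID and TCF relatives of the lists above, fell between the days in 10 of 10 tested genes in Susd2-/- cells and in 9 of 10 in WT cells, where 39.7% and 39% of all genes tested fell. Of these, Sox4 (0.74, SE 0.105), Sox5 (1.38, SE 0.428) and Prdm2 (0.26, SE 0.068) were higher in Susd2-/- cells at day 0 on the log2 scale. Zeb1, the relative of Zeb2, had 37.0 and 34.7 CPM in Susd2-/- libraries against 39.1 and 44.6 CPM in WT libraries at day 3 and was not called (-0.22, SE 0.086, adjusted p = 0.508).

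Noncoding genes that overlap a member had rows of their own in the table, and whether the counting used strand was not stated, so reads of a member and of its antisense partner may not be separated. A630014C17Rik, antisense to Tcf7, had 1048 counts over all 8 libraries, Bach2it1 and Bach2os, within Bach2, had 367 and 138 counts, Gm33460, antisense to Eomes, had 26 counts and Zeb2os had 13 counts. Bach2os, the antisense partner of Bach2, was called higher at day 0 (log2 fold change 2.27, SE 0.652, adjusted p = 0.0159), at 1.04 and 1.03 CPM in Susd2-/- libraries against 0.250 and 0.171 CPM in WT libraries, and DESeq2 did not call it. These levels are small beside those of Bach2 itself.

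By the pattern over the 8 libraries, measured as the Euclidean distance between log2 CPM centred on each gene's mean, Id2 and Foxo1 were the closest pair within the list (0.605), followed by Id3 and Zeb2 (0.645). Among 9708 other genes Foxo1 was nearest to Elf4 (0.096), a transcription factor of the list of CD8 factors, and Tbx21 was nearest to Blm (0.099), the gene of a DNA helicase. Tcf7 was nearest to Rere (0.255) and Btg1 (0.293), and Prdm1 to Cbx5 (0.268) and Myc (0.297). Eomes had no gene as close, with Csrnp2 at 0.437 and Gna15 at 0.457. The distances are descriptions over libraries that differ by day and by genotype. Genes can therefore lie close through a shared difference between the days.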

How the data were processed

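Gene counts were deposited by the authors as raw counts per sequencing lane, and the 15 lanes were summed here into 8 libraries, 2 per group. WT day 3 library 2 had 1 lane and every other library had 2, so lanes were not balanced between the genotypes at day 3. Subread 2.0.1, HISAT2 2.1.0, fastp 0.23.2 and SAMtools 1.10, with GRCm38 as the build, are listed without roles in the notes of the submitters. The counts were fitted with edgeR 4.0.16 in R 4.3.3 (TMM scaling, filterByExpr, robust quasi-likelihood fit of 4 groups), and p-values were adjusted over 16057 genes by the Benjamini-Hochberg method, with 0.05 as the threshold for a call. The filter kept at least 99.9% of the counts of every library. Each SE was derived from the size of the log2 fold change and its F statistic. DESeq2 1.42.0, limma 3.58.1 voom and the other alternatives changed 1 choice at a time. The 10 genes and the lists were chosen with earlier results of these data known. All 10 genes were described in every comparison, and from each list up to 4 genes of smallest adjusted p that passed in a genotype comparison, or up to 2 of smallest p where none passed. The nearest genes were the 2 of smallest distance for each member. Some of the genes so named are left out of the text for length. Library numbers were not taken as pairs, since same-numbered libraries did not deviate together.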

Additional observations from a re-analysis of the deposited data

Results flagged for a closer look

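Tcf7 and Eomes differed between the days in their genotype effect by the interaction test of the edgeR fit. For Tcf7 the interaction was -0.49 on the log2 scale (SE 0.092, adjusted p = 0.00168), from a genotype difference of -0.34 at day 3 and 0.15 at day 0. For Eomes it was -0.83 (SE 0.175, adjusted p = 0.00378), from -0.69 at day 3 and 0.14 at day 0. In both genes the libraries of Susd2-/- cells lay below those of WT cells at day 3 and above them at day 0. Neither gene was called at day 0 (adjusted p = 0.112 for Tcf7 and 0.442 for Eomes by the edgeR test). At that day the libraries of the genotypes did not overlap for 65% of all genes tested. The day 3 calls of both genes were lost under most alternatives, as given above. Of all genes tested 13.5% were called in the interaction.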

How the results depend on the processing

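Of the 10 genes, 2 were called between Susd2-/- and WT cells at day 3. That count was 1 with limma voom and 0 with the compared groups alone, with library number as a replicate block, with the day 0 libraries of each genotype counted as 1 and with lane 1 alone, and it ranged from 0 to 3 when a library was left out. At day 0 the count was 1. It was 2 with total counts, DESeq2 or limma voom, 3 with the compared groups alone, 0 with the day 0 libraries counted as 1, 1 with the replicate block, and 0 to 3 when a library was left out. For the interaction it was 2, against 3 with RLE scaling, total counts, DESeq2 or limma voom, 0 with the day 0 libraries counted as 1, 1 with lane 1 alone, and 2 to 4 when a library was left out. The day comparisons held 7 or 8 calls under every alternative. The change of Cd28 between the days in Susd2-/- cells turned from 0.01 to -0.19 with total counts and to -0.18 with upper-quartile scaling. Over all genes, 22 calls at day 3 became 138 with no filter on low counts, 66 with DESeq2, 12 with the compared groups alone, 6 with the day 0 libraries counted as 1, 14 with lane 1 alone and 5 to 380 when a library was left out, the most without Susd2-/- day 3 library 1, and 3792 calls at day 0 became 776 and 2164 interaction calls became 419 with the day 0 libraries counted as 1. Same-numbered libraries correlated in their deviations at -0.069 at day 3 and 0.007 at day 0, so they did not deviate together. Whether they were collected or prepared together cannot be told from this. The causes were not tested.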

Other observations

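Of 42 other transcription factors of CD8 differentiation 1 was higher and 11 were lower in the interaction of genotype and day, with a median of -0.19 on the log2 scale, against 6.6% higher and 6.88% lower over all genes tested. Irf4 had 519 and 529 CPM in Susd2-/- libraries against 540 and 573 CPM in WT libraries at day 3, and 39.3 and 34.1 CPM in Susd2-/- libraries against 13.6 and 12.5 CPM in WT libraries at day 0 (interaction -1.58, SE 0.106). The genotypes thus lay close at day 3 and apart at day 0. Nfil3 (-1.35, SE 0.178) and Myb (-0.80, SE 0.136) had interactions of the same sign. Mxd4 had an interaction of -0.91 (SE 0.198), and its genotype difference was called at neither day.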
